A study of Mus musculus with 5 samples.

Results

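Collagens, laminins and the glycoproteins and proteoglycans laid down with them make up the extracellular matrix. The set described here held 43 mouse genes: 25 collagen genes, 6 laminin genes and 12 genes of other matrix proteins. They were picked by name, and a peak counted for a gene when the deposited peak list gave it that gene's name. Of 89451 peaks in 3 lists, 256 carried one of the 43 names. The lists came from cardiac progenitor (CP) cells made from 46C mouse embryonic stem cells, and each rested on 1 ChIP-seq library. The first was hnRNPA1 ChIP in Zhx1-KO cells, in which Cas9 guides placed near the transcription start and stop sites of Zhx1 had been used to delete the gene. The others were ZHX1 ChIP and hnRNPA1 ChIP in 46C-Ctrl cells, which kept Zhx1. Inputs of both lines were part of the series but were not used here. Whether the Zhx1-KO line was a single clone was not given in the sources used here, and the lists held no expression values, so the CP identity of the cells and the loss of Zhx1 could not be checked.

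Collagen chains wind into triple helices. Fibrillar collagens then assemble into the cables that give tissue its tensile strength, whereas collagen IV and the laminins build the sheet-like basement membrane under epithelia, around muscle cells and around vessels. In the heart, fibroblasts make most of the fibrillar collagen, and fibronectin and versican form much of the early cardiac matrix. ZHX1 is a zinc finger and homeobox protein of the nucleus. HnRNPA1 is best known as an RNA-binding protein that acts in splicing.

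No position was shared between lists among the peaks that carried a matrix gene's name. Overlap of at least 1 bp was found for 0 of 144 Zhx1-KO hnRNPA1 peaks, 0 of 63 ZHX1 peaks and 0 of 49 46C-Ctrl hnRNPA1 peaks, which allows shares of up to 2.08%, 4.76% and 6.12%, taking 3 peaks of each total as the limit that a count of 0 sets. Over the whole lists, 1.99% of Zhx1-KO hnRNPA1 peaks overlapped a ZHX1 peak and 1.26% overlapped a 46C-Ctrl hnRNPA1 peak. Of all ZHX1 peaks, 4.42% overlapped a Zhx1-KO hnRNPA1 peak and 2.60% a 46C-Ctrl hnRNPA1 peak. Of all 46C-Ctrl hnRNPA1 peaks, 4.41% overlapped a Zhx1-KO hnRNPA1 peak and 4.12% a ZHX1 peak. Each whole-list share lay below the limit given for the matrix gene peaks of that list. The limits, and every interval given here, cover counting error only.

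Shared positions did lie inside 2 of the genes under peaks named for other genes. In an intron of Col25a1, which encodes a membrane-bound collagen, a Zhx1-KO hnRNPA1 peak (chr3:130579774-130580300) and a ZHX1 peak (chr3:130580217-130580649) shared 84 bp in single-copy sequence, and both carried the name Etnppl. In an intron of Gpc6, which encodes a glypican, a Zhx1-KO hnRNPA1 peak (chr14:117546037-117546488) covered the whole 226 bp of a 46C-Ctrl hnRNPA1 peak (chr14:117546157-117546382), and both carried the name Mir6239. The Gpc6 position was repeated sequence: the median 32-base word of the 2 peaks occurred 2138 and 1530 times in the assembly, and a ZHX1 peak lay 591 bp from the shorter one (chr14:117546974-117547249). Both sequences are shown because they were the only positions in these genes at which lists met, read from the plus strand of GRCm38 (mm10), with the shared bases in capitals.
Col25a1 intron (chr3:130580139-130580378): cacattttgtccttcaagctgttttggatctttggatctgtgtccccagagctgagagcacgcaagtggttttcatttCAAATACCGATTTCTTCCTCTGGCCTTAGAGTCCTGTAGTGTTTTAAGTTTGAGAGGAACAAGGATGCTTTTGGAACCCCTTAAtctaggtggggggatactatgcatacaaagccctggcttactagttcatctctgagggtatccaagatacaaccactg
Gpc6 intron (chr14:117546145-117546394): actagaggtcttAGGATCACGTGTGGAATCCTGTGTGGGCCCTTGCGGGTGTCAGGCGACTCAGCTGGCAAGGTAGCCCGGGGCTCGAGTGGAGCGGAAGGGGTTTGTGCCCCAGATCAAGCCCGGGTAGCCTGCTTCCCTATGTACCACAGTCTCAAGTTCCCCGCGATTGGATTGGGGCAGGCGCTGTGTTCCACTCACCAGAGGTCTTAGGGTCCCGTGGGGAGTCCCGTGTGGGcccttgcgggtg

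TAGGG corresponds to the UAGGG that hnRNPA1 recognises in RNA, and it was counted on both strands. At least 1 copy of TAGGG lay under 33.3% of Zhx1-KO hnRNPA1 peaks (95% Wilson interval 26.2 to 41.4) and 34.9% of ZHX1 peaks (24.3 to 47.3), against 35.3% and 34.5% of those whole lists. The share was 46.9% (33.7 to 60.6) in the 46C-Ctrl hnRNPA1 list, against 35.0% of the whole list. CCAAT, counted on both strands, lay under 39.6%, 28.6% and 34.7% of matrix gene peaks in the Zhx1-KO hnRNPA1, ZHX1 and 46C-Ctrl hnRNPA1 lists, against 38.2%, 36.4% and 36.3% of the whole lists. A match of letters is a description and does not make a site.

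Matrix gene names took a small and similar share of each list. The Zhx1-KO hnRNPA1 list gave them 144 of 51545 peaks, or 0.279% (0.237 to 0.329). The ZHX1 list gave them 63 of 23244 peaks, or 0.271% (0.212 to 0.347), and the 46C-Ctrl hnRNPA1 list 49 of 14662 peaks, or 0.334% (0.253 to 0.442). The 3 intervals overlapped. Peaks named for matrix genes were 2.94 times as many in Zhx1-KO hnRNPA1 as in 46C-Ctrl hnRNPA1 (exact 95% interval 2.11 to 4.15), and the whole lists stood at 3.52, inside that interval. With each list cut to the length of the shortest by peak width, the ratio was 0.816, against 1.00 for the whole lists by construction. The files carried no read counts, so the depth behind the lists is unknown, and more peaks, more reads and a looser threshold cannot be told apart.

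Most of the genes were long, and whether length accounts for the shares below was not tested. Their median length was 114 kb, with Lum the shortest at 7.58 kb and Gpc6 the longest at 1051 kb, against a median of 17.4 kb over 21951 protein-coding genes. In the Zhx1-KO hnRNPA1 list, 37 of the 43 genes (86.0%) were named by at least 1 peak, against 57.7% of all protein-coding genes. In the ZHX1 list 34 (79.1%) were named, against 40.5%, and in the 46C-Ctrl hnRNPA1 list 28 (65.1%), against 31.2%. Among genes of 50 kb or longer the gap narrowed. Of the 32 matrix genes of that length, 28 were named in Zhx1-KO hnRNPA1 (87.5%), 25 in ZHX1 (78.1%) and 21 in 46C-Ctrl hnRNPA1 (65.6%), against 82.0%, 64.5% and 51.5% of all such genes. The genes were proposed with results of these lists known, so these shares are descriptions.

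**Figure D1:**
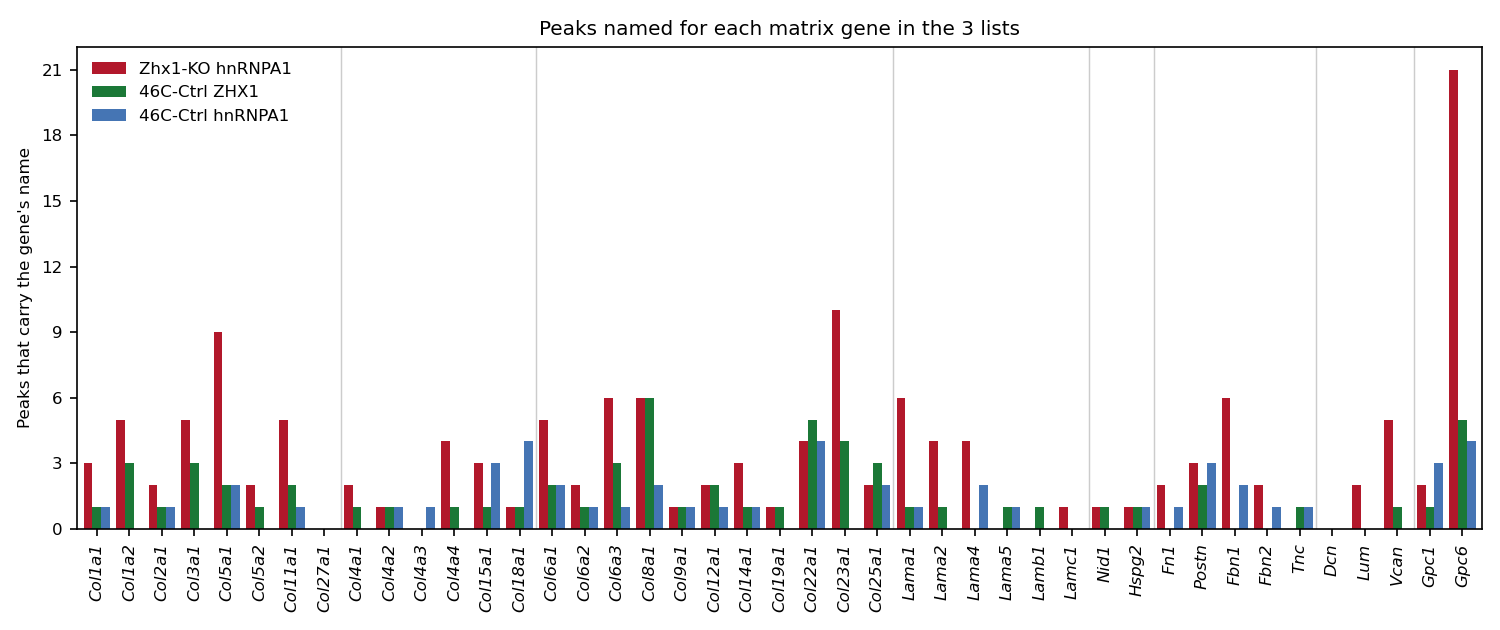
Number of peaks that carried each gene's name (y axis) for the 43 matrix genes (x axis), with bars for the Zhx1-KO hnRNPA1, 46C-Ctrl ZHX1 and 46C-Ctrl hnRNPA1 lists and grey lines between the classes of genes. Gpc6 had the most, with 21 Zhx1-KO hnRNPA1 peaks, and Col27a1 and Dcn had none.

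Per megabase of gene, peaks over the matrix genes were about as dense as over other genes in the hnRNPA1 lists, and in the ZHX1 list the density over all genes stood at the upper end of the interval. The Zhx1-KO hnRNPA1 list placed 124 peaks over their 6.57 Mb, or 18.9 per Mb (exact Poisson 95% interval 15.7 to 22.5), against 21.1 over all protein-coding genes. The ZHX1 list placed 49, or 7.46 per Mb (5.52 to 9.86), against 9.86. The 46C-Ctrl hnRNPA1 list placed 40, or 6.09 per Mb (4.35 to 8.29), against 6.29. With peaks of 300 bp or wider only, the ZHX1 density was 1.98 (1.05 to 3.39), an interval that ended below the 3.49 of all protein-coding genes at that width. At least 1 peak lay over 31, 22 and 22 of the 43 genes in the Zhx1-KO hnRNPA1, ZHX1 and 46C-Ctrl hnRNPA1 lists, against 42.3%, 28.1% and 20.4% of all protein-coding genes at their shorter median length. Introns held most of these peaks: 107 of 124 Zhx1-KO hnRNPA1 peaks (86.3%), 46 of 49 ZHX1 peaks (93.9%) and 39 of 40 46C-Ctrl hnRNPA1 peaks (97.5%). Coding exons held 12, 1 and 1.

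**Figure D2:**
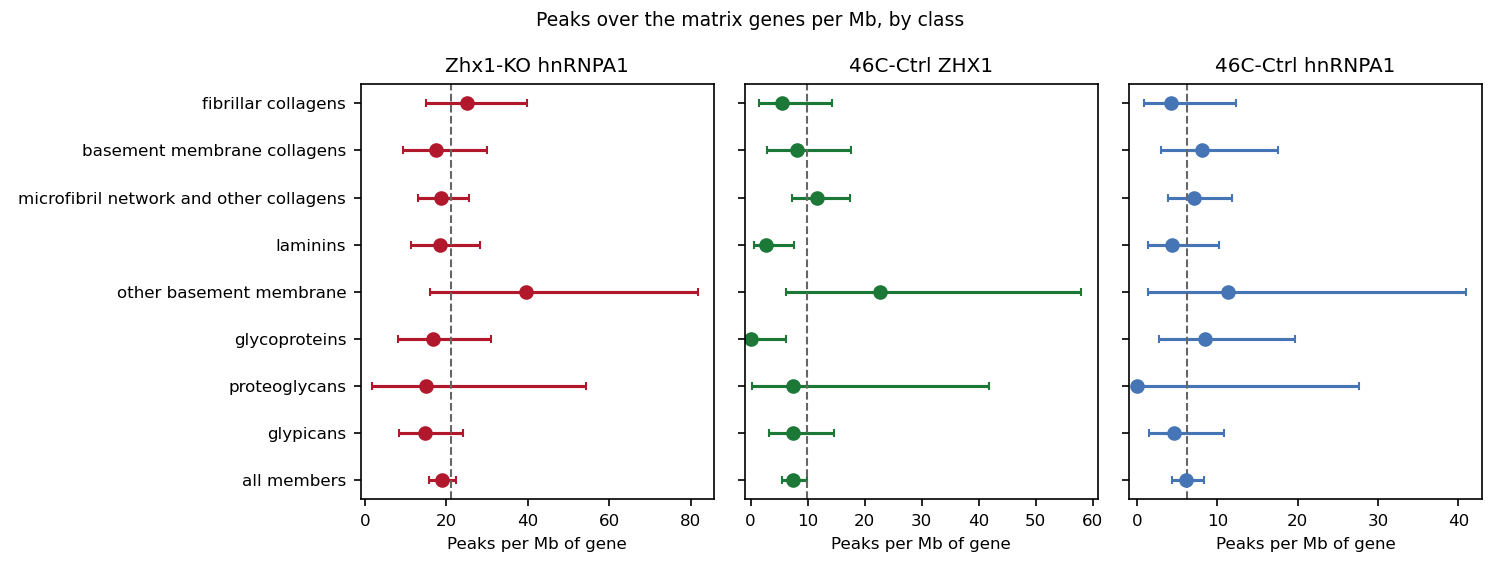
Peaks per Mb of gene (x axis) for each class of matrix genes and for all 43 genes (rows), in panels for the Zhx1-KO hnRNPA1, 46C-Ctrl ZHX1 and 46C-Ctrl hnRNPA1 lists. Bars are exact Poisson 95% intervals and the dashed line is the density over all protein-coding genes. The intervals for laminins and glycoproteins in the ZHX1 panel lie below that line.

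The deposited names often pointed away from the gene under the peak. Of the peaks that lay over a matrix gene, 57 of 124 in Zhx1-KO hnRNPA1 (46.0%), 20 of 49 in ZHX1 (40.8%) and 12 of 40 in 46C-Ctrl hnRNPA1 (30.0%) carried the name of a gene outside the set. In the other direction, 80 of the 144 named Zhx1-KO hnRNPA1 peaks (55.6%) lay outside the gene they named, as did 36 of 63 ZHX1 peaks (57.1%) and 23 of 49 46C-Ctrl hnRNPA1 peaks (46.9%). The median distance of a named peak to the nearest transcription start site (TSS) of its gene came to 42.8 kb for Zhx1-KO hnRNPA1 peaks, 30.4 kb for ZHX1 peaks and 34.4 kb for 46C-Ctrl hnRNPA1 peaks.

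Among the 8 fibrillar collagens, the Zhx1-KO hnRNPA1 list had 31 named peaks, the ZHX1 list 13 and the 46C-Ctrl hnRNPA1 list 5. The ratio of Zhx1-KO to 46C-Ctrl hnRNPA1 peaks was 6.20 (2.39 to 20.4), an interval that held the 3.52 of the whole lists. Col1a1, a chain of collagen I and one of the study's fibroblast markers, had 3 named Zhx1-KO hnRNPA1 peaks, 1 ZHX1 peak and 1 46C-Ctrl hnRNPA1 peak. Its only peak inside the gene was a Zhx1-KO hnRNPA1 peak over a coding exon (chr11:94948377-94948750), while the ZHX1 peak lay 7.19 kb upstream (chr11:94928917-94929144) and the 46C-Ctrl hnRNPA1 peak 30.4 kb upstream (chr11:94905747-94905985). Col3a1, the chain of collagen III and another fibroblast marker of the study, had 5, 3 and 0. Of its Zhx1-KO hnRNPA1 peaks, 3 lay inside the gene, 1 of them over a coding exon (chr1:45332005-45332421) in single-copy sequence. The others inside the gene lay in introns in repeated sequence, with median words that occurred 25995 and 2 times in the assembly. None of the Col3a1 ZHX1 peaks lay inside the gene. Of those, 1 lay upstream in repeated sequence (4247 times) and 1 over the neighbouring Col5a2 (chr1:45391666-45391893).

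Col5a1, whose product starts the assembly of collagen I fibrils, had 9 named Zhx1-KO hnRNPA1 peaks, 2 ZHX1 peaks and 2 46C-Ctrl hnRNPA1 peaks. Over the gene itself the counts were 8, 1 and 2. The first Zhx1-KO peak lay 0.692 kb inside the start of the gene, in an intron. Col1a2, the partner chain of Col1a1, had 5, 3 and 0 named peaks, none of them over the gene, and Col11a1 had 5, 2 and 1. Col27a1 had no named peak in any list, yet 3 Zhx1-KO hnRNPA1 peaks lay over it under the names Mir455 and Orm1.

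The 6 basement membrane collagens had 11, 5 and 9 named peaks in the Zhx1-KO hnRNPA1, ZHX1 and 46C-Ctrl hnRNPA1 lists. Their ratio of Zhx1-KO to 46C-Ctrl hnRNPA1 peaks was 1.22 (0.460 to 3.34), and the interval ended below the 3.52 of the whole lists. Counted over the genes, the numbers were 13, 6 and 6 and the ratio 2.17 (0.768 to 6.95), an interval that held the 3.36 of all protein-coding genes. The class ratios had been seen before this one was described. By name, every other class interval held 3.52, and the proteoglycans, with 0 46C-Ctrl hnRNPA1 peaks, had no ratio. The names were crossed at Col4a1 and Col4a2, the chains of the main collagen IV. These genes start head to head and overlap by 22 bp, so that for a peak further inside either gene the partner's outermost start is the nearer. All peaks named Col4a1 (2, 1 and 0) lay over Col4a2, and of those named Col4a2 (1, 1 and 1) the Zhx1-KO and 46C-Ctrl hnRNPA1 peaks lay over Col4a1. Col18a1, the source of endostatin, had 1, 1 and 4 named peaks, and Col15a1 had 3, 1 and 3.

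The 11 collagens of microfibrils, networks and other forms were each named in both the Zhx1-KO hnRNPA1 and ZHX1 lists, with 42 and 29 peaks, and 9 of them were named in 46C-Ctrl hnRNPA1, with 15. Of all protein-coding genes, 57.7%, 40.5% and 31.2% were named in these lists. Their median length was 17.4 kb, against 130.5 kb for the 11 collagens. Among all genes of 50 kb or longer, 82.0%, 64.5% and 51.5% were named. Col23a1, a membrane-bound collagen of 294 kb on chromosome 11, had 16, 7 and 3 peaks over the gene, and 10, 4 and 0 of them carried its name. The others were named for the neighbour Phykpl. Its density was 54.4 Zhx1-KO hnRNPA1 peaks per Mb (31.1 to 88.4), 23.8 ZHX1 peaks (9.57 to 49.1) and 10.2 46C-Ctrl hnRNPA1 peaks (2.10 to 29.8). Chromosome 11 genes as a whole carried 43.6, 16.6 and 12.1 per Mb, so Col23a1 lay within counting error of its chromosome.

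Col8a1, a network collagen of vessel walls, had 6, 6 and 2 named peaks, most of them upstream of the gene. Col22a1, found at junctions between muscle and tendon, had 4, 5 and 4, and Col6a3, a chain of the beaded microfibrils around cells, had 6, 3 and 1. The widest 46C-Ctrl hnRNPA1 peak with a matrix gene's name, of 500 bp, lay 2.48 kb upstream of Col6a3 (chr1:90846203-90846702).

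The 6 laminins had 15, 4 and 4 named peaks in the Zhx1-KO hnRNPA1, ZHX1 and 46C-Ctrl hnRNPA1 lists, and 21, 3 and 5 over the genes. The ZHX1 density was 2.64 per Mb (0.544 to 7.71), and the interval ended below the 9.86 of all protein-coding genes. The hnRNPA1 densities were 18.5 (11.4 to 28.2) in Zhx1-KO cells and 4.40 (1.43 to 10.3) in 46C-Ctrl cells, and those intervals held the values of all genes. Lama2, the chain of muscle laminin, contributed 640 kb and had 7, 0 and 2 peaks over the gene. Without it the densities were 28.1 (15.4 to 47.2), 6.03 (1.24 to 17.6) and 6.03 (1.24 to 17.6), and the ZHX1 interval held the 9.86 of all genes. The 5 laminin genes outside the set had a ZHX1 density of 11.6 per Mb (4.24 to 25.2). Lamc1, the gamma chain common to most laminins, had 6, 1 and 0 over the gene, and only 1 of these carried its name. The widest named peaks of 2 lists fell far upstream of Lama2: a Zhx1-KO hnRNPA1 peak of 1048 bp at 203 kb (chr10:27822439-27823486) and a ZHX1 peak of 827 bp at 109 kb (chr10:27728561-27729387).

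Lama1, an early embryonic laminin chain, had 6, 1 and 1 named peaks. Lama5 was named in both 46C-Ctrl lists and not in Zhx1-KO hnRNPA1, but 2 Zhx1-KO hnRNPA1 peaks lay over it under the name Mir7005. Lamb1 was named by 1 ZHX1 peak alone.

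Glycoproteins of the matrix had hnRNPA1 peaks but no ZHX1 peak over the genes. The 5 genes held 10 Zhx1-KO hnRNPA1 peaks, 0 ZHX1 peaks and 5 46C-Ctrl hnRNPA1 peaks in 0.594 Mb. The ZHX1 count allows a density of up to 6.21 per Mb, below the 9.86 of all protein-coding genes. Fbn1, the fibrillin of elastic microfibrils, had 7, 0 and 2 peaks over the gene, and 4 of its 6 named Zhx1-KO hnRNPA1 peaks lay in repeated sequence. Fn1, fibronectin, had 2, 0 and 1, and the Zhx1-KO and 46C-Ctrl peaks of one pair lay 186 bp apart (chr1:71627602-71627825 and chr1:71627058-71627415). Tnc, tenascin C, had no Zhx1-KO hnRNPA1 peak by name or over the gene, against 1 named ZHX1 peak and 1 named 46C-Ctrl hnRNPA1 peak. Postn, periostin, had 3, 2 and 3 named peaks, none over the gene. The laminins and glycoproteins were singled out after the values of 8 classes in 3 lists had been seen, and in the other classes each interval held the density over all genes.

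Among the proteoglycans, Vcan, versican of the early heart matrix, had 5, 1 and 0 named peaks. Lum, lumican, had 2 Zhx1-KO hnRNPA1 peaks upstream, both in repeated sequence (median word counts of 139 and 224), and none in the other lists. Dcn, decorin, had no peak by name or over the gene in any list. The basement membrane genes Nid1 and Hspg2, nidogen and perlecan, had 1, 1 and 0 and 1, 1 and 1 named peaks. Over Hspg2 there were 6, 3 and 2, most of them named Mir7018.

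Gpc6 had the most named peaks of all, with 21 in Zhx1-KO hnRNPA1, 5 in ZHX1 and 4 in 46C-Ctrl hnRNPA1. Of the 21, 16 lay upstream, as far as 713 kb from its start, and several of these lay in repeated sequence. Over the gene there were 16, 6 and 5, or 1.52, 0.571 and 0.476 per 100 kb. Gpc1, another glypican, had 2, 1 and 3 named peaks, and a ZHX1 peak and a 46C-Ctrl hnRNPA1 peak upstream of it stood 85 bp apart (chr1:92813293-92813576 and chr1:92813662-92813968). Without Gpc6 and Col23a1 the named peaks numbered 113, 54 and 45, and the ratio of Zhx1-KO to 46C-Ctrl hnRNPA1 peaks was 2.51.

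**Figure D3:**
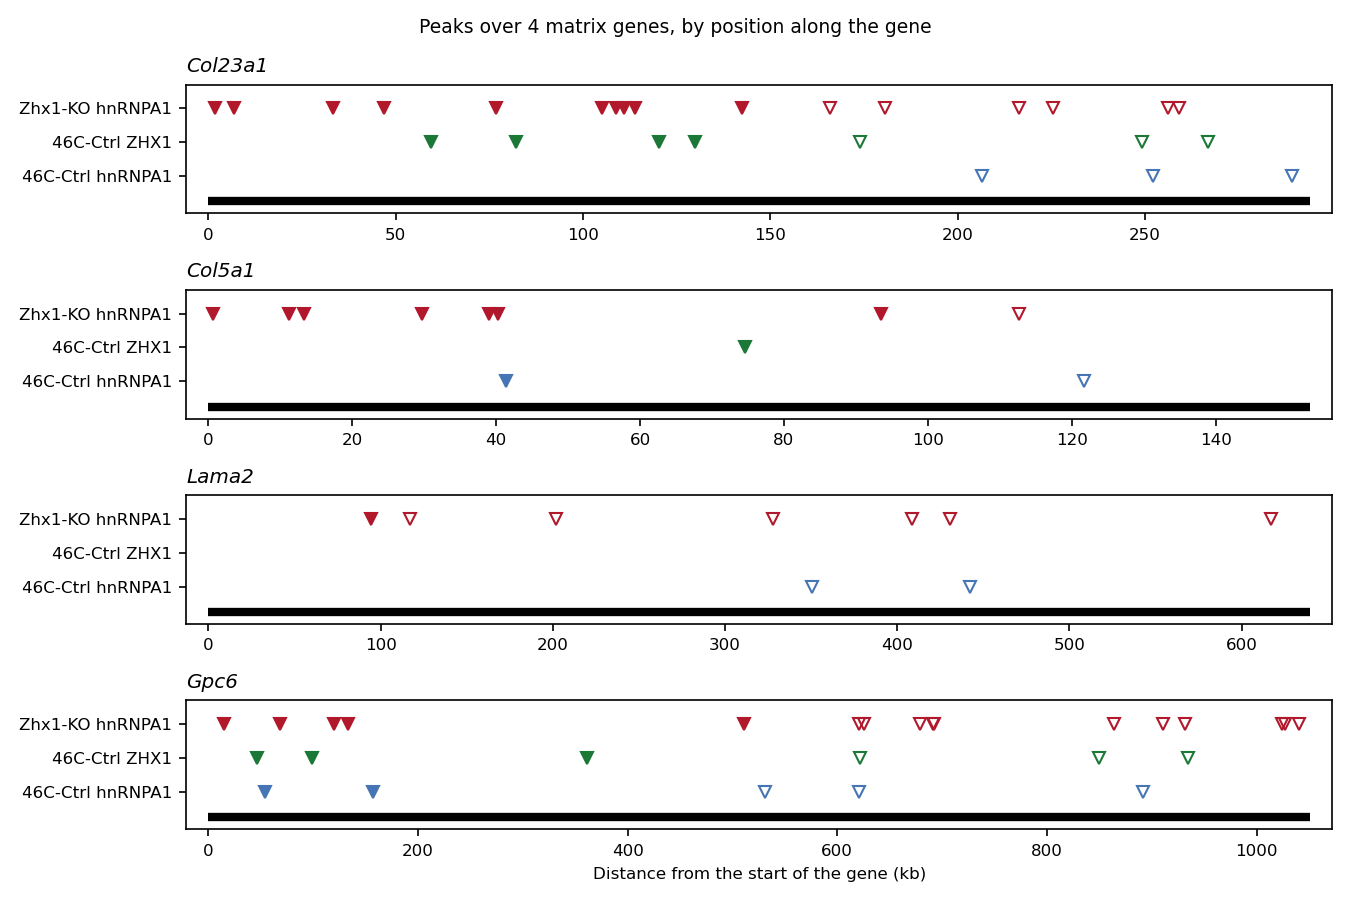
Positions of peaks over Col23a1, Col5a1, Lama2 and Gpc6 as distance from the start of the gene in kb (x axis), with rows for the Zhx1-KO hnRNPA1, 46C-Ctrl ZHX1 and 46C-Ctrl hnRNPA1 lists and a black bar for the gene. Filled marks are peaks that carried the gene's name and open marks carried another name, as the far parts of Col23a1 and Gpc6 show.

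Peak numbers rose with the length of the gene, as the plot of peaks against length shows. Over the 43 genes, which share a library within each list, Spearman's rho between length and peaks over the gene was 0.52 in Zhx1-KO hnRNPA1, 0.45 in ZHX1 and 0.66 in 46C-Ctrl hnRNPA1. Between length and named peaks it was 0.26, 0.14 and 0.13.

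**Figure D4:**
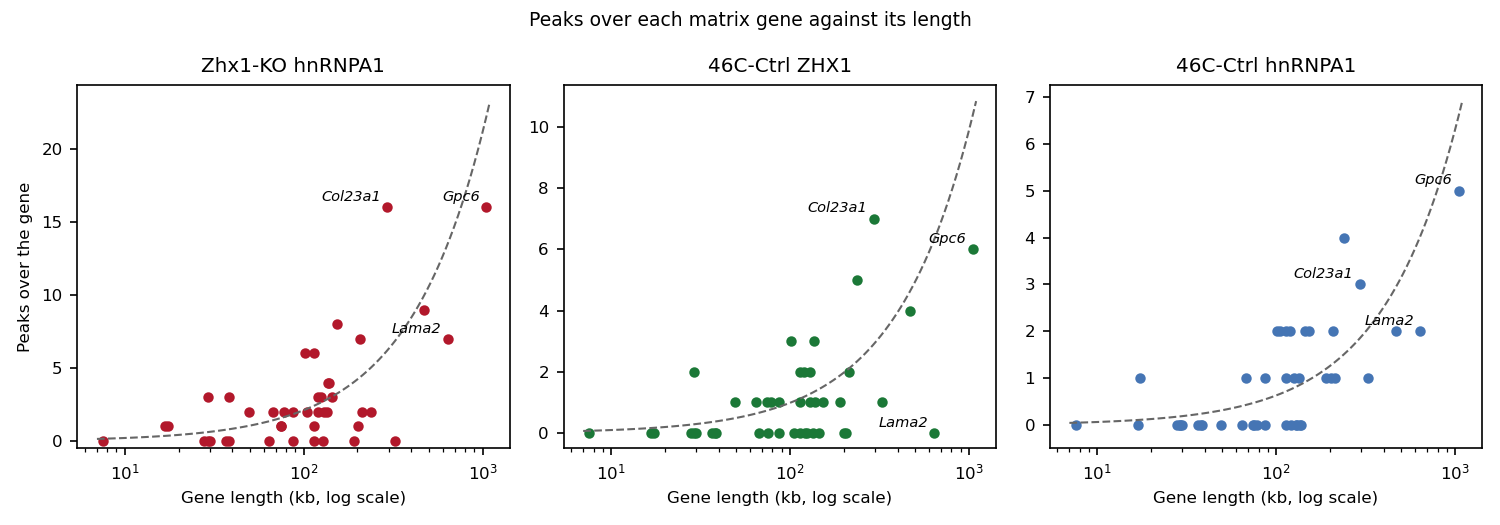
Peaks over each of the 43 matrix genes (y axis) against gene length in kb (x axis, log scale), in panels for the Zhx1-KO hnRNPA1, 46C-Ctrl ZHX1 and 46C-Ctrl hnRNPA1 lists. The dashed curve is the number expected at the density over all protein-coding genes. Col23a1 lies above the curve in all 3 panels, and Gpc6 and Lama2 below it.

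Peaks within 2 kb of a TSS of any annotated transcript were found for 10 of the 43 genes in Zhx1-KO hnRNPA1, 7 in ZHX1 and 1 in 46C-Ctrl hnRNPA1, that is 23.3%, 16.3% and 2.33%, against 21.0%, 12.1% and 6.77% of all protein-coding genes. Col2a1, the collagen of cartilage, was the only gene with such peaks in more than 1 list, and its Zhx1-KO hnRNPA1 and ZHX1 peaks lay at different starts. Zhx1-KO hnRNPA1 and ZHX1 alone thus held 2.33% of the 43 genes, against 3.25% of all protein-coding genes. All 3 lists held 0 of the 43, against 0.574%. Both 46C-Ctrl lists alone held 0, against 0.957%, and both hnRNPA1 lists alone held 0, against 1.635%. The Zhx1-KO hnRNPA1 genes were Col2a1, Col3a1, Col4a1, Col5a1, Col6a2, Col23a1, Fn1, Hspg2, Lama5 and Lamc1. The ZHX1 genes were Col2a1, Col5a2, Col6a3, Col25a1, Gpc1, Lamb1 and Vcan, and the 46C-Ctrl hnRNPA1 gene was Col12a1. In 26 genes (60.5%) no list had one, against 67.2% of all protein-coding genes.

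Most of these starts were internal to the gene. Within 2 kb of the outermost start there were 3 genes in Zhx1-KO hnRNPA1, namely Col5a1, Col23a1 at 1.67 kb inside and Col6a2 at 1.61 kb upstream. The ZHX1 list also had 3, namely Col2a1 at 1.14 kb upstream, Col25a1 at 1.46 kb upstream and Vcan at 1.22 kb inside, and the 46C-Ctrl hnRNPA1 list had 0. The share of all protein-coding genes with a peak at the outermost start was not computed, so these counts are descriptions only. The peaks at Col5a1, Col2a1 and Vcan are given because they lie nearest to the outermost start, on the plus strand of GRCm38 with TAGGG and CCAAT of either strand in capitals. Only the Vcan peak held a match, 2 copies of CCAAT.
Col5a1, Zhx1-KO hnRNPA1 (chr2:27887006-27887229): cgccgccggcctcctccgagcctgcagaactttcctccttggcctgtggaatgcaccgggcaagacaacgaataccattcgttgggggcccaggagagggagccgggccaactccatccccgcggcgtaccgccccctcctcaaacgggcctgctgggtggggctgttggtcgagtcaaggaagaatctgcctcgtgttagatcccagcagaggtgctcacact
Col2a1, 46C-Ctrl ZHX1 (chr15:98005723-98005950): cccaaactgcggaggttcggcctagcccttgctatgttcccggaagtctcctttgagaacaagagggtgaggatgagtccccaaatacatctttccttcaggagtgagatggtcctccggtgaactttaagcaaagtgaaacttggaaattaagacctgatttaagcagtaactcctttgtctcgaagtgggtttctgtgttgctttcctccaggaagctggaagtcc
Vcan, 46C-Ctrl ZHX1 (chr13:89741153-89741421): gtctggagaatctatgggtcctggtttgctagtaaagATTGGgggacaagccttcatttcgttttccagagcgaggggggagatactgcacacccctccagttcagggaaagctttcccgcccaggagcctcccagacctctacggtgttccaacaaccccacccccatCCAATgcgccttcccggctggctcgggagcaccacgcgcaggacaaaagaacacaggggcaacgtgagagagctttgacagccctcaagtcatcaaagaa

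By name, 21 of the 43 genes (48.8%) were in all 3 lists, against 17.9% of all protein-coding genes. A further 10 (23.3%) were in Zhx1-KO hnRNPA1 and ZHX1 without 46C-Ctrl hnRNPA1, against 14.2%. In both hnRNPA1 lists without ZHX1 there were 4 (Fbn1, Fbn2, Fn1 and Lama4, 9.30%), close to the 7.64% of all genes. With peaks over the gene in place of names, these 3 combinations held 8 (18.6%), 8 (18.6%) and 10 (23.3%) of the 43 genes. Of all protein-coding genes they held 9.25%, 9.87% and 5.51%. All protein-coding genes had a median length of 17.4 kb, against 114 kb for the matrix genes. Combinations of lists were not counted for genes of 50 kb or longer alone. Of the 23 genes named in both 46C-Ctrl lists, 2 (8.70%) were missing from Zhx1-KO hnRNPA1, namely Lama5 and Tnc, against 10.4% of the 4388 protein-coding genes named in both. Counted over the gene instead, 3 of 11 were missing (27.3%), namely Col11a1, Col18a1 and Col19a1, against 16.3% of 2424. Closest peaks were sought among all peaks named for a gene or lying over it. Those of Zhx1-KO and 46C-Ctrl hnRNPA1 stood a median of 10.7 kb apart over 31 genes. Those of Zhx1-KO hnRNPA1 and ZHX1 stood 6.02 kb apart over 33, and those of the 46C-Ctrl lists 21.4 kb over 27. In both pairings with Zhx1-KO hnRNPA1, the same peaks gave the distance for Col4a1 and for Col4a2. These medians cannot rank the pairings, because genes and peak totals (51545, 23244 and 14662) differ between them. Such distances were not computed over all protein-coding genes, and whether they depart from what peak totals alone would give was not tested.

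Repeated sequence lay under fewer of the matrix gene peaks. The share of peaks whose median 32-base word occurred at least 2 times in the assembly was 24.3% (18.03 to 31.9) in Zhx1-KO hnRNPA1, against 31.4% of the whole list. It was 15.9% (8.86 to 26.8) in ZHX1, against 25.2%, and 4.08% (1.13 to 13.7) in 46C-Ctrl hnRNPA1, against 24.4%. The whole-list value lay above the interval in 46C-Ctrl hnRNPA1 and inside it in the other lists. Median GC content was 49.3%, 46.0% and 47.4% under matrix gene peaks of Zhx1-KO hnRNPA1, ZHX1 and 46C-Ctrl hnRNPA1, against 48.3%, 46.3% and 46.7% of the whole lists.

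Genes that work with the matrix were counted in the same way, by name, against 57.7%, 40.5% and 31.2% of all protein-coding genes in the Zhx1-KO hnRNPA1, ZHX1 and 46C-Ctrl hnRNPA1 lists. All 14 matrix receptors, mostly integrins, were named in Zhx1-KO hnRNPA1, 8 (57.1%) in ZHX1 and 6 (42.9%) in 46C-Ctrl hnRNPA1. Their median length was 80.1 kb, and of all genes of 50 kb or longer 82.0%, 64.5% and 51.5% were named. Itga1, a collagen-binding integrin chain, had 11, 6 and 4 named peaks, and Itgb1, its beta partner, had 8, 7 and 3. Over the genes themselves the counts were 2, 1 and 1 for Itga1 and 2, 0 and 1 for Itgb1. Over the receptor genes the densities were 23.2 per Mb (15.4 to 33.5), 4.14 (1.34 to 9.66) and 5.80 (2.33 to 11.9). The ZHX1 interval ended just below the 9.86 of all protein-coding genes. Of 15 genes for enzymes and helpers of collagen making, 8, 8 and 6 were named (53.3%, 53.3% and 40.0%), with Adamts2, which trims procollagen, at 10, 5 and 6 peaks. Of 11 genes of matrix breakdown, 7, 4 and 2 were named (63.6%, 36.4% and 18.2%), the last 2 shares below those of all genes. Of 18 further collagens, 13, 11 and 12 were named (72.2%, 61.1% and 66.7%), and of 5 further laminins, 4, 4 and 1 (80.0%, 80.0% and 20.0%). The ZHX1 densities over these groups were 16.9 per Mb (8.45 to 30.3) for the enzymes, 14.1 (5.18 to 30.7) for breakdown, 7.73 (4.22 to 13.0) for the further collagens and 11.6 for the further laminins, and each interval held 9.86.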

How the data were processed

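ChIP DNA of CP cells from 46C mouse embryonic stem cells was sequenced in paired ends, with 1 library per group, so no p-value was computed. The authors trimmed reads with cutadapt 1.18, used Bowtie2 2.3.5.1 for mapping against GRCm38 (mm10), and removed reads without a unique position and duplicates, which lowers what can be called in repeats. BWA 0.7.12-r1039 and deepTools 3.3.0 are named too. Not given in the sources used here are the peak caller, its threshold and the origin of the gene names. The deposited lists hold positions and a gene name per peak, with no score, signal or read count, so depth per sample is unknown.

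Peaks were counted by deposited name and by overlap of at least 1 bp with GENCODE M21 genes, with coordinates counted from 1. The authors mapped against another GENCODE release. Shares have Wilson and densities exact Poisson 95% intervals, and ratios exact binomial ones. Copy number is the median count of 32-base words in the assembly. Python 3.11.15, pandas 2.3.3 and scipy 1.17.1 were used, and the overlap, word and motif counts were tested on simulated data. Members and lists were chosen with earlier results of these data known. All genes were accounted for by count. Genes with a peak within 2 kb of a TSS were listed by name, with distances to a start given only for outermost starts. Genes were also described, by count or position, when they had overlapping peaks of 2 lists or one of the 5 highest counts. The same was done for the widest peak of a list, for genes with no peak, and for Col1a1 and Col3a1. Other genes named were chosen after their values were seen. The sequences of some peaks are not reported here. Alternatives covered peak width, list length, copy number, naming, overlap and TSS distance.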

Additional observations from a re-analysis of the deposited data

How the results depend on the processing

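No paired analysis was possible because each group had 1 library. With peaks of 300 bp or wider only, 56 of 20201 Zhx1-KO hnRNPA1 peaks carried a matrix gene's name. So did 22 of 8112 ZHX1 peaks and 19 of 4756 46C-Ctrl hnRNPA1 peaks. The ratio of Zhx1-KO to 46C-Ctrl hnRNPA1 peaks was then 2.95, against 4.25 for the whole lists, with no interval computed. The genes named were 16 in ZHX1 and 15 in 46C-Ctrl hnRNPA1. Genes with a TSS peak were 1 in Zhx1-KO hnRNPA1 and 4 in ZHX1. The densities in Zhx1-KO hnRNPA1, ZHX1 and 46C-Ctrl hnRNPA1 were 7.61, 1.98 and 2.13 per Mb. Over all protein-coding genes they were 8.26, 3.49 and 2.03 at that width. With lists of equal length by width, Zhx1-KO hnRNPA1 had 40 named peaks, 22 genes named and 1 gene with a TSS peak, ZHX1 had 38 named peaks, and the ratio of Zhx1-KO to 46C-Ctrl hnRNPA1 peaks was 0.816, against 1.00 for the whole lists by construction. With peaks over the gene in place of the name, ZHX1 covered 22 genes, and 1 Zhx1-KO hnRNPA1 peak overlapped a ZHX1 peak and 1 a 46C-Ctrl hnRNPA1 peak. Within 500 bp, 1 pair of Zhx1-KO and 46C-Ctrl hnRNPA1 peaks met and 2 pairs of ZHX1 and 46C-Ctrl hnRNPA1 peaks. Genes with a TSS peak numbered 6 in Zhx1-KO hnRNPA1 and 3 in ZHX1 at 1 kb, 19, 11 and 7 at 5 kb, and 3, 3 and 0 at the outermost start. Under these alternatives, genes named and genes with a TSS peak were not counted over all protein-coding genes. Pairs within 500 bp were not counted over the whole lists. Those counts are therefore descriptions only. Without Lama2, a choice made after seeing the data, the laminin densities were 28.1 per Mb in Zhx1-KO hnRNPA1 and 6.03 in ZHX1. Leaving out repeated sequence moved no count by over 1.5 times. Adding 10 kb flanks or leaving out chromosome 11 was examined for the densities only, and moved none of them by over 1.5 times. Leaving out Gpc6, Col23a1 or both was chosen after seeing the data. It moved no number of named peaks and no density by over 1.5 times, and other counts were not examined for it here. Requiring a larger overlap of both peaks could not change overlap counts that were already 0. Without replicates or depth, no difference between lists could be tested.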
